A study of Homo sapiens with 25 samples.

Results

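The comparison described here sets DND-41 cells kept without histidine against the same cells given the full amount of histidine, both on the day labelled 6. Its members were chosen by sample title: the 3 libraries titled as no histidine and the 3 titled as 100% histidine, together 6 of the 25 libraries in the series. DND-41 is an established human T-cell acute lymphoblastic leukaemia line, a model of leukaemic T-cell progenitors. All groups are this 1 line, and the labels name no drug, transgene or genetic change in either group, so histidine in the medium is the difference they record. The remaining libraries hold 50%, 25% and 12.5% histidine on day 6 and 100%, 50%, 25% and 12.5% on day 9. The 12.5% group of day 6, with 3 libraries, serves below as the nearest neighbour of the group without histidine. The no-histidine library of replicate 1 has day 6 in its title and day 9 in its time label, and it was placed by its title. Days are those of the sample labels, which differ from the days in the design text. Nothing in the labels states that replicates came from separate cultures; p-values therefore measure only how far these samples spread, and that spread may be technical.

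Histidine is an essential amino acid, which human cells cannot make and take up through carriers such as the SLC7A5 and SLC3A2 pair. When a charged tRNA runs short, uncharged tRNA activates the kinase GCN2, encoded by EIF2AK4, which phosphorylates the initiation factor eIF2, slows general translation and favours translation of the transcription factor ATF4. Amino acids also signal through the RAG GTPases on the lysosome to the growth kinase mTORC1, whose activity feeds into cell-cycle entry, ribosome production and sterol regulation. T-cell leukaemias of this type keep progenitor features such as RAG1 and DNTT, depend in many cases on NOTCH1 and MYC, and in DND-41 carry an active TLX3 gene.

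RNA levels were deposited as normalized counts, in which each library's reads per gene are divided by a library factor, so a value has no unit beyond reads on a common scale. The values of the 6 libraries add up to 13.65 M to 15.58 M, and 14834 to 16034 genes reached a value of 10. The reads behind single values could not be recovered, so the depth is known only as this sum. On the log2 scale over all genes tested, libraries without histidine correlated with each other at 0.966 to 0.969, those with full histidine at 0.967 to 0.971, and libraries across the 2 groups at 0.944 to 0.951. All 10 T-cell markers were above the filter, with sums of 53990 to 57060 with full histidine and 40890 to 51590 without it. B-cell markers summed to 17040 to 18690 and 10790 to 14530, nearly all of it CD79A, and 6 of the 10 were in the table. CD79A read 15250, 14790 and 16480 with full histidine and 9400, 13030 and 12200 without it. That fall of 0.44 on the log2 scale passed (limma adjusted p = 0.019). It did not pass without the no-histidine library of replicate 1 (adjusted p = 0.137) or the full-histidine library of replicate 3 (adjusted p = 0.073). Nor did it pass with quantile normalization (adjusted p = 0.0823). The call was also lost, at -0.53, without the keratin-high libraries described below. Of the T-cell markers LCK rose by 0.50, CD7 and TLX3 fell by 0.83 and 0.85, and 7 did not pass.

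The other marker lists were low. Epithelial markers summed to 27.1 to 1555 with full histidine and 6.34 to 26.2 without it, with KRT5 at 0 in each of the 6 libraries. The keratins KRT8, KRT18 and KRT19 together reached 383, 1406 and 3.44 in replicates 1, 2 and 3 with full histidine and 6.42, 0 and 8.89 without histidine. Fibroblast markers summed to 551 to 739 and 244 to 374, endothelial markers to 410 to 455 and 614 to 753, natural killer markers to 1030 to 1094 and 916 to 1255, myeloid markers to 34.7 to 51.5 and 18.4 to 55.2, and erythroid markers to 9.78 to 14.9 and 1.69 to 4.28. The 5.8S ribosomal RNA was at 153, 406 and 1181 with full histidine and 242, 121 and 120 without it. In bulk RNA, fewer cells of a type and less RNA per cell cannot be told apart. Some results were repeated without every library of the series in which these keratins exceeded 100. On day 6 these were replicates 1 and 2 with full histidine and replicates 1 and 2 with 50% histidine. On day 9 they were replicates 1 and 3 with 25% histidine. Replicate 3 was then the only library left with full histidine on day 6, and its spread was taken from the other groups. These values are given as those without the keratin-high libraries.

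Without histidine, 5611 of 18799 genes tested (29.8%) passed an adjusted p of 0.05, with 2503 rises (13.3%) and 3108 falls (16.5%). The test was limma on log2(value + 1) over all 25 libraries, with Benjamini-Hochberg adjustment over all genes tested, and all log2 changes below are on that scale, which understates the change of low genes. Rises of at least 1 on the log2 scale numbered 728 and falls of that size 1038. The median change over all genes tested was 0.03 and the median standard error of a change was 0.22. In 8019 genes (42.7%) the 3 and 3 libraries did not overlap. Without the keratin-high libraries 3243 genes passed, 1483 of them rises, and without the no-histidine library of replicate 1 the total was 4900. The balance of directions depended on the scaling: upper-quartile rescaling gave 3157 rises and 2786 falls and quantile normalization 3047 and 2942, with median changes of 0.10 and 0.04. Counts of gene groups are given with an alternative setting below where it moved them by over 1.5 times. Each count is to be read beside the 13.3% of all genes that rose and the 16.5% that fell. Thymocyte receptors and antigens were near those shares (13.9% and 19.4%), and cytosolic tRNA synthetases stood somewhat above both (20.0% and 25.0%). The plot of change against level shows falls and rises at all levels, with ARRDC3 far from the other abundant genes.

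**Figure D1:**
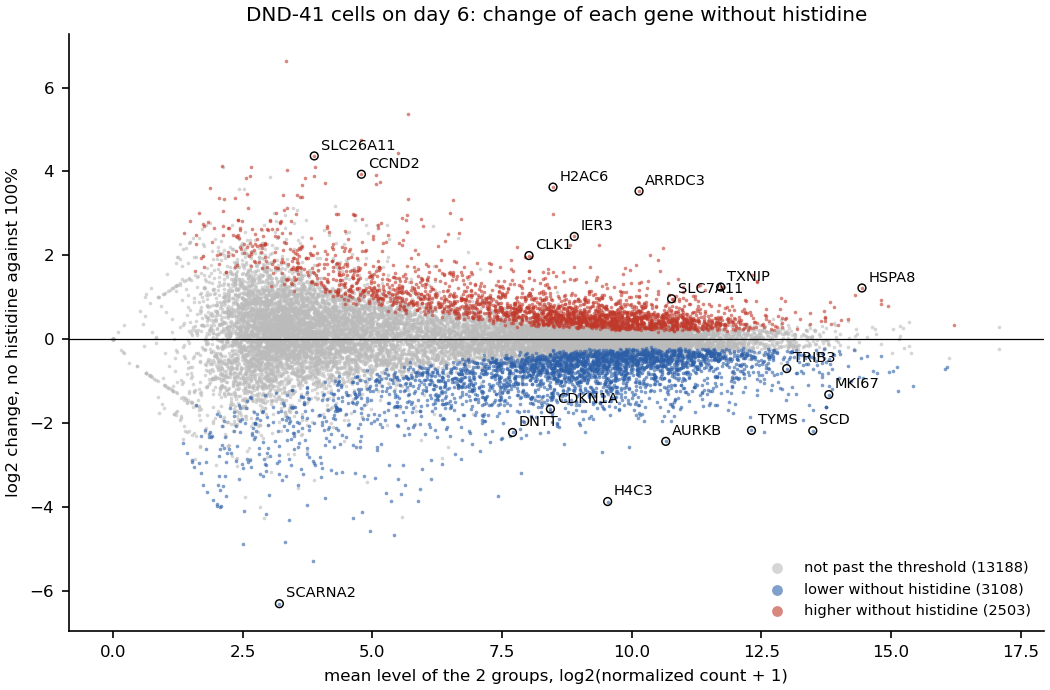
Log2 change without histidine against full histidine (vertical axis, log2(value + 1) scale) against the mean log2 value of the 2 groups (horizontal axis), 1 point per gene tested. The 2503 rises, 3108 falls and 13188 genes that did not pass are coloured separately, and ARRDC3 stands highest among the abundant genes at 3.53.

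Among the 12 tested genes for histidine carriers, 4 rose and 3 fell, with a median change of 0.27 against 0.03 over all genes. The falls numbered 1 without the no-histidine replicate 1, the full-histidine replicate 2 or 3, or the keratin-high libraries. SLC3A2 (chr11:62856109-62888860 in GRCh38.p14, a protein-coding gene, as are the others placed below), the heavy chain that brings LAT-type carriers to the membrane, read 11710, 9980 and 10260 in replicates 1, 2 and 3 with full histidine and 15700, 21490 and 22230 without it, an order kept for all triplets below. Every library without histidine was above every library with it, and the rise was 0.88 ± 0.16 on the log2 scale (standard error; limma adjusted p = 0.00011). SLC7A5, the light chain of the same carrier, read 22980, 23130 and 23120 against 24590, 31650 and 28940. Those groups did not overlap either, but the difference of 0.29 ± 0.12 missed the threshold (adjusted p = 0.074). The neutral amino acid carriers SLC38A1 and SLC38A2 rose by 0.48 and 0.32, and the lysosomal histidine and peptide carrier SLC15A4 rose by 0.48. SLC38A2 did not pass without the keratin-high libraries (0.35, adjusted p = 0.0547). SLC38A5, which carries glutamine and histidine, fell from 557, 471 and 562 to 290, 318 and 330, by 0.76 ± 0.16.

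Of 14 tested enzymes that use or break down histidine, 3 rose and 1 fell, with 1 rise without the no-histidine replicate 2, none without the keratin-high libraries, and 2 falls without the full-histidine replicate 3, with library weights or with the log2 level of 5.8S rRNA as a covariate. The main counts are 21.4% and 7.1% of these genes, against 13.3% and 16.5% of all genes. The histidyl-tRNA synthetases HARS1 (1128, 1059 and 949 against 904, 1035 and 991) and HARS2 (402, 459 and 414 against 408, 390 and 465) overlapped between the groups, with differences of -0.10 ± 0.09 and -0.01 ± 0.12 (adjusted p = 0.46 and 0.95). DPH2, a subunit of the enzyme that starts the diphthamide modification of a histidine in elongation factor 2, read 452, 387 and 424 against 638, 763 and 666. All 3 libraries without histidine were higher, by 0.71 ± 0.17, a call that did not hold without the keratin-high libraries (adjusted p = 0.0687). AMDHD1, an enzyme of histidine breakdown, was low and fell from 49.2, 41.1 and 49.5 to 10.6, 11.1 and 0.

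ATF4, the effector of the amino acid response, did not pass the test: its values were 18310, 18460 and 18430 with full histidine and 17110, 19890 and 19610 without it, a difference of 0.03 ± 0.09 (limma adjusted p = 0.82). Its protein was not measured. Of 40 tested genes known as ATF4 targets or partners, 7 rose (17.5%) and 9 fell (22.5%), at a median of -0.09. Over all genes 13.3% rose and 16.5% fell. The list had 12 rises, 6 falls and a median of 0.01 with quantile normalization, and 10 rises and 7 falls with upper-quartile rescaling. Without the no-histidine library of replicate 1 the falls numbered 5, and without the keratin-high libraries 4. The 2 directions are best seen member by member, and the windows below show for a pair of them where the amino acid response letters stand.

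The promoters of ASNS (asparagine synthetase) and AARS1 (alanyl-tRNA synthetase) are shown because both carry the amino acid response motif while their RNAs did not move alike. Each line is 200 bases up to the base before the RefSeq transcription start (GRCh38.p14), 5′ to 3′ on the gene's strand, with the motif in capitals; of a gene's several starts the one with most motif matches is shown. ASNS lies at chr7:97872409-97872608 on the minus strand, with TGATGNAA starting 68 bases before the start. AARS1 lies at chr16:70289507-70289706 on the minus strand, where the motif is on the opposite strand, 187 bases before the start.
ASNS: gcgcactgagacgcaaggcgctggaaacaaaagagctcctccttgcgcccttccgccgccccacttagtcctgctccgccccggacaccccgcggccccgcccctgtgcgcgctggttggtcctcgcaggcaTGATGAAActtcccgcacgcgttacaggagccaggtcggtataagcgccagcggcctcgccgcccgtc
AARS1: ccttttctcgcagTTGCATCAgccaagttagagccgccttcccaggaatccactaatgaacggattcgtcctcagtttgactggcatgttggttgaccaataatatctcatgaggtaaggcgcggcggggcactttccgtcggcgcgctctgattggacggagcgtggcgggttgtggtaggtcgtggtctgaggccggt
In 300-base windows, reaching 50 bases past the start, TGATGNAA on either strand was found in 13 of 55 windows of the ATF4 list (23.6%). It was found in 3.62% of all 35116 windows, which include genes not tested. The share was 1.79% for all genes that rose, 1.62% for those that fell and 2.24% for those that did not pass. The letters in capitals overlap no other motif searched. A match is a description of the letters, not evidence of binding.

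ASNS was low and variable, at 15.6, 45 and 8.92 with full histidine and 74.2, 24.7 and 93.4 without it. The groups overlapped and the difference of 1.53 ± 0.69 did not pass (limma adjusted p = 0.10). AARS1 read 5957, 5444 and 5722 against 2816, 3246 and 3040, and all 3 libraries without histidine were lower, by 0.91 ± 0.10 (adjusted p = 2.5e-07). TRIB3, a pseudokinase that restrains ATF4 signalling, fell from 10250, 10110 and 10670 to 5392, 6815 and 7034 (by 0.70 ± 0.11, adjusted p = 2.2e-05). ATF5, a related transcription factor, fell by 0.79. DDIT3, the stress factor CHOP, read 642, 667 and 600 against 646, 651 and 683, and the groups overlapped at a difference of 0.05 ± 0.11. CHAC1, which degrades glutathione, and SESN2, a leucine sensor that restrains mTORC1, differed by 0.23 and -0.06 and did not pass (adjusted p = 0.35 and 0.79).

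Some of the list rose. SLC7A11, the cystine and glutamate exchanger, read 1230, 1229 and 1285 against 2562, 2572 and 2195, about 1.96-fold higher in mean count and without overlap (0.96 ± 0.12, limma adjusted p = 8.9e-07). PPP1R15A, which brings a phosphatase to eIF2, read 981, 861 and 861 against 1709, 1609 and 1508, a rise of 0.84 ± 0.11. Among the kinases and partners of eIF2, 4 of 18 rose and 3 fell, or 2 and 0 without the keratin-high libraries, 8 and 2 with upper-quartile rescaling and 8 and 1 with quantile normalization. The main counts are 22.2% and 16.7%, against 13.3% and 16.5% of all genes. EIF2S1, the phosphorylated subunit of eIF2 itself, rose by 0.52. EIF2AK4, the GCN2 kinase, read 513, 555 and 565 against 810, 710 and 634. Its rise of 0.39 ± 0.11 (adjusted p = 0.0088) did not pass without the no-histidine library of replicate 1 (0.30, adjusted p = 0.0643) or without the keratin-high libraries (adjusted p = 0.164). FGF21, a secreted ATF4 target, was at 0 in all 3 libraries with full histidine and at 1.74, 5.58 and 9.77 without it. These values all lie under the filter value of 10. The rise passed, but the call was lost without the keratin-high libraries (2.53).

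Genes of amino acid sensing to mTORC1 moved in both directions, 8 rises and 6 falls among 39, or 5 and 1 without the keratin-high libraries. The main counts are 20.5% and 15.4% of the list, against the 13.3% and 16.5% of all genes that rose and fell. Among the rises were RAG GTPases and the folliculin complex that acts on them. FNIP1 (chr5:131641714-131797017), the partner of folliculin, read 426, 460 and 445 against 1265, 1005 and 965, and all 3 libraries without histidine were higher (1.27 ± 0.14, limma adjusted p = 1.8e-07). FLCN, folliculin, rose by 0.77, RRAGC by 0.78 and RRAGA by 0.62. MIOS, a part of the GATOR2 complex, fell by 0.81, and DEPDC5, a part of GATOR1, which inhibits the RAG GTPases, fell by 0.97. The call of DEPDC5 was lost without the no-histidine library of replicate 2, the full-histidine library of replicate 1 or the keratin-high libraries (adjusted p = 0.0629, 0.0672 and 0.268).

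Lysosome and autophagy genes had 13 rises and 5 falls among 41, or 5 rises and 2 falls without the keratin-high libraries. The main counts are 31.7% and 12.2% of the list, against 13.3% and 16.5% of all genes. CTSD, the protease cathepsin D, read 3900, 3982 and 3917 against 6033, 8517 and 7835, a rise of 0.91 ± 0.11. NEU1, a lysosomal sialidase, rose by 0.98, ULK1, the kinase that starts autophagy, by 0.80, and MAP1LC3B, the autophagosome protein LC3B, by 0.50. These 4 did not overlap between the groups. ATG10, which helps attach ATG12 to ATG5, went the other way and fell by 1.25.

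ARRDC3 and TXNIP belong to the alpha-arrestins, adaptor proteins that draw membrane transporters and receptors into the cell, and TXNIP is known for holding back glucose uptake and thioredoxin. ARRDC3 (chr5:91368631-91383317) read 364, 333 and 297 with full histidine and 4312, 3484 and 3741 without it. All 3 libraries without histidine were higher, and the mean was 11.6-fold higher (3.53 ± 0.12, limma adjusted p = 2.2e-15). TXNIP (chr1:145992435-145996579) read 2168, 2166 and 2227 against 5153, 5088 and 5314, a mean 2.37-fold higher, with no overlap (1.25 ± 0.11, adjusted p = 1.1e-08). ARRDC2 rose by 0.75, and MLXIP, the sensor MondoA that drives TXNIP in many cells, rose by 0.55. ARRDC4 read 532, 456 and 494 against 714, 554 and 593 and did not pass (0.32 ± 0.13, adjusted p = 0.057). In all, 4 of the 7 tested genes of this group rose and none fell.

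The TXNIP promoter is shown because it holds the double E-box-like motif through which MondoA is known to act. The window is chr1:145996580-145996779 of GRCh38.p14 on the minus strand, printed as above, with the motif, 2 copies of CACGNG set 5 bases apart, in capitals from 88 bases before the start.
TXNIP: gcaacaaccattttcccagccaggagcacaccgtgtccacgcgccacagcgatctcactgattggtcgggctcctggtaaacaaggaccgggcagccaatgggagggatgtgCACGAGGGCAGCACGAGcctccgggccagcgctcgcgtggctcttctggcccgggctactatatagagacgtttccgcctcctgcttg
On either strand these letters were found in 0.057% of all 300-base promoter windows. In the group of TXNIP and ARRDC genes they were found in 1 of 10 windows, that of TXNIP. The windows of ARRDC3, ARRDC2 and ARRDC4 held none.

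**Figure D2:**
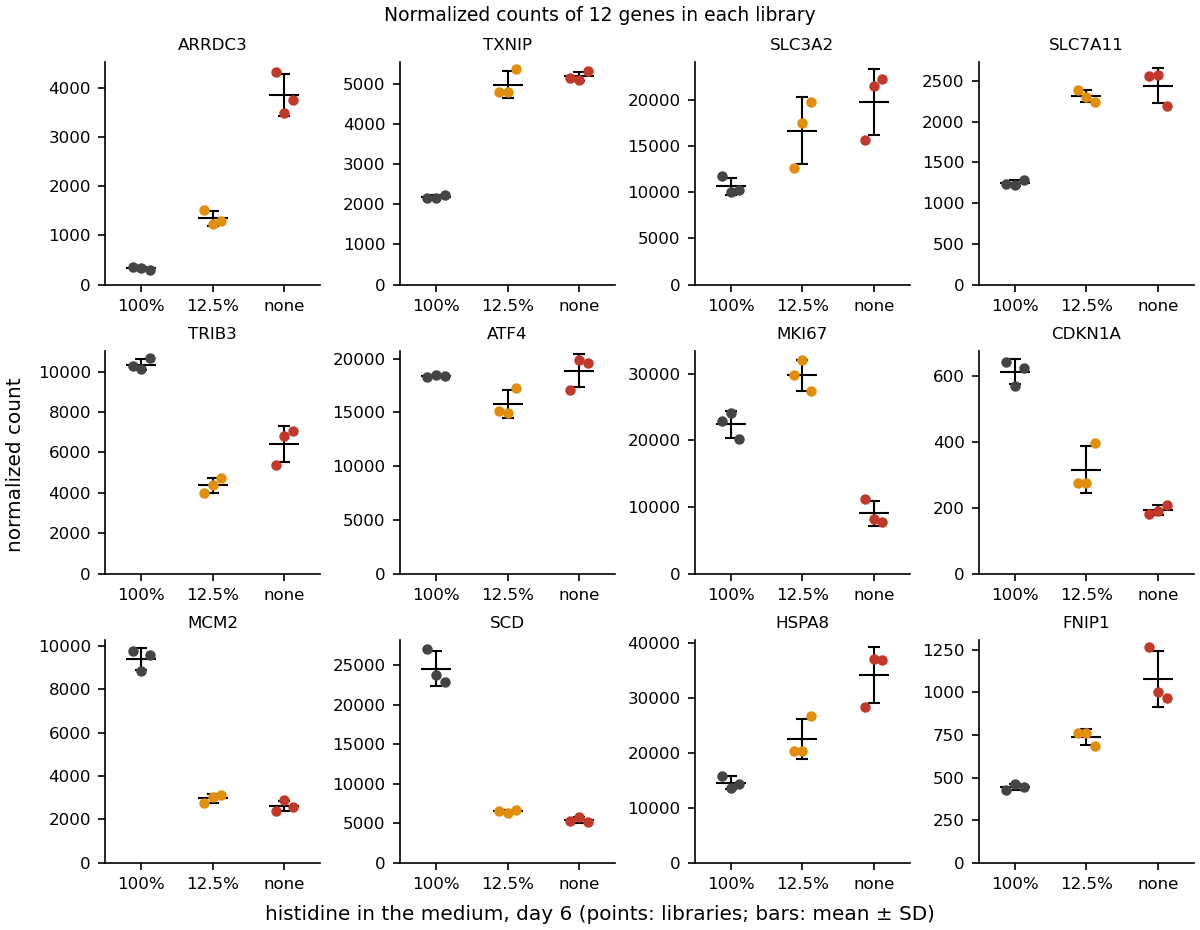
Normalized counts (vertical axes, linear from 0) of 12 genes in each library of day 6 with 100%, 12.5% and no histidine (horizontal axis), 1 point per library and bars at the mean ± SD. ARRDC3 climbs from 297 to 364 with full histidine to 3484 to 4312 without it, whereas the ATF4 points of those groups overlap.

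Many chaperones rose. Of 24 tested heat shock genes 14 rose and 2 fell, at a median of 0.61, and 1 fell without the keratin-high libraries, the no-histidine replicate 1 or 3, or the full-histidine replicate 2 or 3. HSPA8, the constitutive HSP70, read 15820, 13530 and 14270 against 28260, 37110 and 36930, with no overlap (1.22 ± 0.13, limma adjusted p = 1.7e-07). HSPH1, a nucleotide exchange factor for HSP70, rose by 1.28, and the HSP90 genes HSP90AA1 and HSP90AB1 by 0.94 and 1.06. HSPA1B rose by 1.24, though its near-identical copy HSPA1A makes the split of reads between them uncertain. The genes of the unfolded protein response of the endoplasmic reticulum divided into 6 rises and 7 falls among 29, with 3 rises when either full-histidine replicate 2 or 3 or no-histidine replicate 2 or 3 was left out and 2 without the keratin-high libraries or with the 5.8S covariate. The main counts are 20.7% and 24.1% of these genes, against 13.3% and 16.5% of all genes. CKAP4, a sheet-shaping protein of the endoplasmic reticulum, fell from 138, 112 and 86.2 to 14.8, 10.2 and 14.

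Genes of protein synthesis did not fall as a group. Among 36 ribosome biogenesis genes 13 rose and 1 fell, or 19 and 1 with upper-quartile rescaling and 21 and 1 with quantile normalization. The falls numbered 2 with the 5.8S covariate or without the full-histidine replicate 3. GNL3, the nucleolar GTPase nucleostemin, read 1052, 1048 and 937 against 2008, 2030 and 1848, a rise of 0.96 ± 0.12 without overlap. NOP2, an rRNA methyltransferase, rose by 0.77, and FBL, the 2′-O-methyltransferase fibrillarin, fell by 0.70. Of 50 ribosomal protein genes 7 rose with the limma test (14.0%, near the 13.3% of all genes). None fell, against 16.5% of all genes, and 1 fell without the no-histidine replicate 3 or the full-histidine replicate 2. The rises numbered 0 without the keratin-high libraries, 2 without the no-histidine replicate 3, 3 without its replicate 2 or the full-histidine replicate 1 or 2, 2 with the 5.8S covariate, 3 without a mean trend, 13 with upper-quartile rescaling, 16 with library weights, 18 with quantile normalization and 17 without the no-histidine library of replicate 1.

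Translation factors gave 6 rises and 2 falls among 31, with 11 rises under upper-quartile rescaling, 14 under quantile normalization and 12 with library weights. The falls numbered 4 with library weights, the 5.8S covariate or the stricter filter, and 1 without the keratin-high libraries. EIF5, which promotes start-codon recognition, read 1920, 1801 and 1720 against 4258, 3991 and 3987, a 2.25-fold higher mean (1.17 ± 0.08, limma adjusted p = 1.6e-10). EIF4A2, an RNA helicase of initiation, rose by 1.00. Host genes of small nucleolar RNAs, many of whose spliced transcripts are removed by nonsense-mediated decay, had 6 rises and 1 fall among 18, with 3 rises without the keratin-high libraries or with the 5.8S covariate and no fall without those libraries or the no-histidine replicate 1. SNHG3 read 347, 292 and 235 against 843, 682 and 773, a rise of 1.40 ± 0.14. Cytosolic tRNA synthetases were split, 4 rises and 5 falls among 20, or 7 and 4 with quantile normalization. TARS1 and LARS1, for threonine and leucine, rose by 0.51 and 0.56, while QARS1, for glutamine, fell by 0.96 and AARS1, for alanine, by 0.91.

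Cell-cycle genes fell almost throughout. All 53 tested G2/M and mitosis genes fell, at a median of -1.24, against 16.5% of all genes. The count was 53 without the no-histidine library of replicate 1, 50 without the keratin-high libraries and 52 with upper-quartile or quantile scaling. AURKB (chr17:8204731-8210575), the kinase of the chromosomal passenger complex, read 3772, 3680 and 3761 against 563, 743 and 787. All 3 libraries without histidine were far below the others (-2.43 ± 0.13, limma adjusted p = 2.4e-12). MKI67, the proliferation antigen Ki-67, fell from 22920, 24190 and 20250 to 11240, 8219 and 7828 (by 1.32 ± 0.15), with replicate 1 the highest of the 3 without histidine. NCAPH, a condensin subunit, fell by 1.96, MYBL2, which activates G2/M genes, by 1.92, ESPL1, the protease separase, by 1.84 and PLK1, a mitotic kinase, by 1.25.

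Replication genes followed. Of 44 tested, 42 fell and none rose, at a median of -1.14, and 41 fell both without the no-histidine library of replicate 1 and without the keratin-high libraries. The 2 that did not pass were TIPIN and RPA1, which differed by -0.37 and -0.18 (limma adjusted p = 0.086 and 0.22). MCM2 (chr3:127598411-127622436), a subunit of the replicative helicase, read 9748, 8824 and 9583 against 2377, 2870 and 2587, a mean 3.59-fold lower (-1.85 ± 0.10, adjusted p = 1.7e-12). CDT1, which loads that helicase, fell from 7174, 7140 and 7344 to 1767, 2459 and 2269 (by 1.75 ± 0.12). POLE2, a subunit of polymerase epsilon, fell by 1.82, MCM10 by 1.79 and the flap nuclease FEN1 by 1.62. MCM6 and PCNA, whose promoters follow, fell by 0.94 and 1.02.

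Promoters of 3 replication genes and 3 mitotic genes are shown because each set fell together and each carries a known cell-cycle motif. All are 200 bases up to the start, as above. CDT1 lies at chr16:88803589-88803788 on the plus strand, with the E2F motif TTTCCCGC on the opposite strand 35 bases before the start. MCM6 lies at chr2:135876444-135876643 on the minus strand, with the E2F motif TTTGGCGC at 152 and 90 bases before it. PCNA lies at chr20:5126623-5126822 on the minus strand, with TTTCCCGC on the opposite strand at 59. Capitals mark these letters.
CDT1: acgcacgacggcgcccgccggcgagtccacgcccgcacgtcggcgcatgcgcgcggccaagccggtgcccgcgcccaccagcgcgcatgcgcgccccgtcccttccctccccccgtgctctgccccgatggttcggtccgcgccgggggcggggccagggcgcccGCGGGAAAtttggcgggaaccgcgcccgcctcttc
MCM6: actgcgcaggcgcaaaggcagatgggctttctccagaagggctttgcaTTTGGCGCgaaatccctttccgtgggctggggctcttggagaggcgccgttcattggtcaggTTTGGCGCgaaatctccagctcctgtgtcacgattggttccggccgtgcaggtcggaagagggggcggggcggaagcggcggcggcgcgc
PCNA: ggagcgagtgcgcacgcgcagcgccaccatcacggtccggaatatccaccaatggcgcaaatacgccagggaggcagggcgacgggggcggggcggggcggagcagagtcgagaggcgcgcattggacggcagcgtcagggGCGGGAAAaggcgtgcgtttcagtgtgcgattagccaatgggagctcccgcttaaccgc
The mitotic genes carry the cell cycle homology motif TTTGAA, in capitals. MKI67 lies at chr10:128126424-128126623 on the minus strand, with matches at 47 and 29 bases before the start. PLK1 lies at chr16:23678689-23678888 and ESPL1 at chr12:53268099-53268298, both on the plus strand, with matches at 29 and 31 bases before it.
MKI67: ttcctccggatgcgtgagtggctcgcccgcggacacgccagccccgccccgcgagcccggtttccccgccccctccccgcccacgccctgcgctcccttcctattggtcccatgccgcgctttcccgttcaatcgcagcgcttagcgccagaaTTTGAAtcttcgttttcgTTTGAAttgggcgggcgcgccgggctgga
PLK1: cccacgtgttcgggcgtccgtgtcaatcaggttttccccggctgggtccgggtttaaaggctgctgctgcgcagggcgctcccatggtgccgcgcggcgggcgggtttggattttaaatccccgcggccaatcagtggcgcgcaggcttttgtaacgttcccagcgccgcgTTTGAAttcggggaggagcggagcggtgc
ESPL1: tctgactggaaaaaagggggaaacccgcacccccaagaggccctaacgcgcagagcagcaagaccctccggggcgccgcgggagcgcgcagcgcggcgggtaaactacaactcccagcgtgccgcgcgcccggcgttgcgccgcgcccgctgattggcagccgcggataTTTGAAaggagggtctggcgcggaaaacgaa
In the 300-base windows, on either strand, TTTGAA was found in 37 of 60 windows of G2/M genes (61.7%) and in 0 of 46 of replication genes. It was found in 12.6% of windows of all genes that fell, 9.38% of those that rose and 10.9% of those that did not pass. Over all windows, of genes tested or not, the share was 15.2%. At least 1 of the E2F motifs was found in 17 of 46 windows of replication genes (37.0%). It was found in 5.45% of windows of all genes that fell, 1.88% of those that rose, 2.96% of those that did not pass and 2.27% of all. The second TTTGAA of MKI67 shares its last base with a CCAAT box on the opposite strand, and the other capitals overlap no other motif searched. The matches describe letters only.

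Homologous recombination and Fanconi genes, which repair broken and crosslinked DNA, had 26 falls and 1 rise among 29, or 23 falls and no rise without the keratin-high libraries and 25 and none without the no-histidine replicate 1. EME1, a partner of the MUS81 nuclease, read 795, 795 and 790 against 222, 196 and 148, with no overlap (-2.09 ± 0.14, limma adjusted p = 1e-10). BRIP1, a helicase of the Fanconi pathway, fell by 1.97 and RAD54L by 1.79. Deoxynucleotide synthesis was split by member: 5 of 13 fell and none rose, though 2 rose with upper-quartile or quantile scaling. TYMS, thymidylate synthase, read 10740, 10460 and 11150 against 2156, 2461 and 2570, a mean 4.50-fold lower (-2.17 ± 0.12). TK1 fell by 1.94 and RRM1, the large subunit of ribonucleotide reductase, by 1.25. RRM2, its small subunit, read 666, 1404 and 1728 against 1268, 1048 and 355. Those groups overlapped, and the difference of -0.59 ± 0.49 did not pass.

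**Figure D3:**
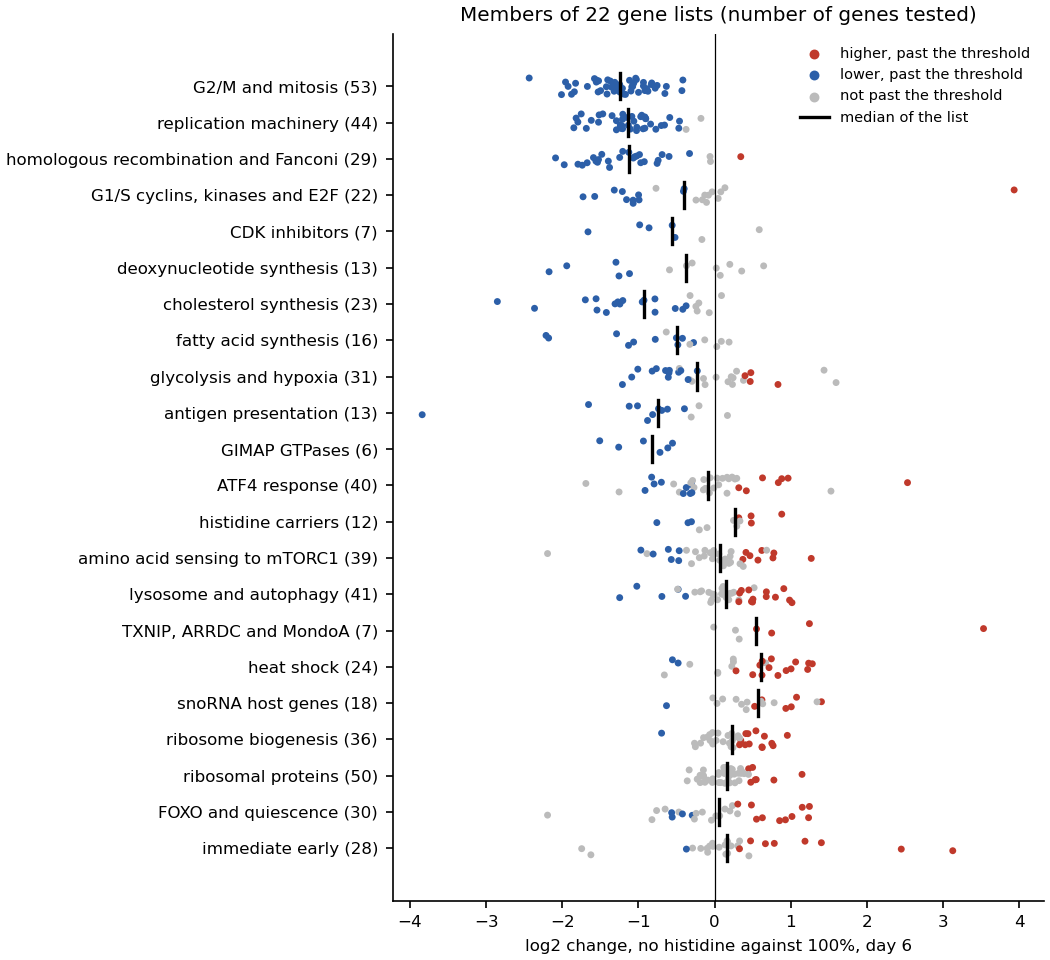
Log2 change without histidine against full histidine (horizontal axis) for each tested member of 22 gene lists (rows), 1 point per gene, with a bar at the list's median. The G2/M and replication rows lie left of 0, at medians of -1.24 and -1.14. The recombination row, with 1 rise among 29 genes, lies mostly to the left, at -1.13, and the heat shock row mostly to the right, at 0.61.

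At the entry to S phase 11 of 22 genes fell and 1 rose. E2F2 read 4195, 4609 and 4221 against 1291, 1399 and 1243 (-1.73 ± 0.08, limma adjusted p = 2.3e-13), E2F1 fell by 1.16 and the repressor E2F8 by 1.32. CCNE1, cyclin E1, fell by 1.57 and RBL1, the pocket protein p107, by 1.21. The D-cyclin kinases CDK4 and CDK6 differed by -0.03 and 0.08 and did not pass. CCND3, cyclin D3, fell from 28120, 26450 and 27640 to 17710, 22510 and 22040 (by 0.41 ± 0.10, adjusted p = 0.0024), a call that ended without the keratin-high libraries (adjusted p = 0.0678) and with quantile normalization (adjusted p = 0.0795). CCND2, cyclin D2, was the 1 rise, from 13.9, 6.01 and 0 to 17.9, 148 and 131. It passed at 3.93 ± 1.10 (adjusted p = 0.0084) but not without the full-histidine library of replicate 3 (2.82, adjusted p = 0.0753).

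Inhibitors of cyclin-dependent kinases did not rise. Of 7 tested, 5 fell. CDKN1A (chr6:36676463-36687332), the inhibitor p21, read 645, 571 and 627 against 180, 191 and 209, a mean 3.17-fold lower without overlap (-1.66 ± 0.13, limma adjusted p = 1.2e-09). CDKN1B, p27, fell from 3394, 2909 and 2998 to 2191, 2055 and 2065 (by 0.56 ± 0.09), and CDKN2C, p18, by 0.86. CDKN2D, p19, fell by 0.52, but not without the no-histidine library of replicate 1 (-0.45, adjusted p = 0.0663), the full-histidine library of replicate 1 (-0.47, adjusted p = 0.0611) or the keratin-high libraries (adjusted p = 0.169).

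Of the 13 tested BCL2 family genes, which set the threshold for mitochondrial cell death, 1 rose and none fell. The rises numbered 2 with upper-quartile rescaling, library weights or the no-histidine replicate 1 left out and 3 with quantile normalization. A gene fell with the 5.8S covariate, a pseudocount of 8, the stricter filter, only the groups compared, or the no-histidine or full-histidine replicate 2 left out. The rise was BCL2L11, the killer protein BIM, which read 1034, 938 and 992 against 1269, 1234 and 1194. The groups did not overlap, and the rise of 0.32 ± 0.09 (limma adjusted p = 0.0081) was lost without the keratin-high libraries (adjusted p = 0.135). The pro-survival genes BCL2, MCL1 and BCL2L1 differed by -0.08, 0.17 and 0.18 and did not pass. Caspases and death receptors had 5 rises and 6 falls among 24, with 3 rises without the full-histidine replicate 3 or with the 5.8S covariate and 2 falls without the keratin-high libraries. The main counts are 20.8% and 25.0% of that list, against 13.3% and 16.5% of all genes. CASP9, the caspase of the apoptosome, rose by 1.23 and the death ligand TNFSF10 by 0.93.

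Lipid synthesis fell in both branches. In cholesterol synthesis 17 of 23 genes fell and none rose, at a median of -0.93, and 15 fell without the keratin-high libraries. HMGCS1, which makes HMG-CoA, read 3486, 2771 and 2700 against 1090, 1125 and 1106, with no overlap (-1.42 ± 0.11, limma adjusted p = 4.8e-10). MVK, mevalonate kinase, fell by 2.85, CYP51A1, lanosterol demethylase, by 2.36 and DHCR7, which makes cholesterol from its last precursor, by 1.70. Sterol sensing and transport genes had 8 falls and 2 rises among 16, or 1 rise without the full-histidine replicate 1 or the keratin-high libraries. SREBF1 and SREBF2, the sterol-controlled transcription factors, fell by 1.56 and 0.79, and the sterol sensor partner INSIG1 by 1.47.

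In fatty acid synthesis 10 of 16 genes fell and none rose, or 7 without the keratin-high libraries, and 1 rose with upper-quartile or quantile scaling or library weights. SCD (chr10:100347233-100364826), which puts the double bond into saturated fatty acids, read 27090, 23730 and 22880 against 5246, 5819 and 5186. Every library without histidine was far lower, at a mean 4.54-fold below (-2.18 ± 0.09, limma adjusted p = 2.2e-14). FADS2, a desaturase of polyunsaturated fatty acids, fell by 2.21 and FASN, fatty acid synthase, by 0.78. Oxidation of fatty acids was mixed, 5 rises and 8 falls among 21. It had 4 falls without the no-histidine replicate 1, 3 rises without the full-histidine replicate 2, and 3 of each without the keratin-high libraries. HADH fell by 1.31 and the peroxisomal thiolase ACAA1 rose by 0.78.

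Groups of carbon metabolism are read against the 16.5% of all genes that fell and the 13.3% that rose. Among 31 genes of glycolysis or the hypoxia response, 13 fell (41.9%) and 4 rose, or 8 and 2 without the keratin-high libraries. PFKL, a phosphofructokinase, read 5845, 5566 and 5609 against 2555, 2958 and 2967 (-1.01 ± 0.08, limma adjusted p = 1.4e-09), and the histone demethylase KDM3A rose by 0.83. Nuclear genes of the respiratory chain had 9 falls among 42 (21.4%), near the share over all genes, and 1 rise (0 to 2 over the alternatives). The falls included CYC1, cytochrome c1, at -0.95 and SDHA, a succinate dehydrogenase subunit, at -0.75. Serine, folate and purine synthesis had 10 falls (38.5%) and 2 rises among 26, or 6 and 1 without the keratin-high libraries. The rises numbered 1 when either the no-histidine replicate 1 or 3 or the full-histidine replicate 1 or 2 was left out, with no filter or with only the groups compared. MTHFD1, an enzyme of folate carbon units, read 3213, 2975 and 2903 against 1084, 1205 and 936, a mean 2.82-fold lower (limma adjusted p = 1.1e-09). SHMT1 fell by 1.20 and GMPS, which makes guanine nucleotides, by 1.25.

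MYC, a transcription factor of growth and an oncogene in this leukaemia, read 17230, 14640 and 15450 against 14170, 16060 and 16340, and the groups overlapped (-0.02 ± 0.08, limma adjusted p = 0.87). MXD1, one of the repressors that compete with MYC for its partner MAX, read 538, 533 and 502 against 1353, 1189 and 1168, a 2.36-fold higher mean (1.23 ± 0.10), MXD4 rose by 0.96 and MNT by 0.66, whereas MXD3, which is expressed in S phase, fell by 1.62. NOTCH1 read 8718, 8590 and 8328 against 7983, 8555 and 8085, and its target HES1 1262, 1360 and 1309 against 1206, 1422 and 1426. Neither passed, with differences of -0.06 and 0.04. Elsewhere in the NOTCH list 7 of 20 fell, or 4 without the keratin-high libraries, and 2 rose. NOTCH3, itself a NOTCH1 target, fell by 0.77, DTX1 by 0.70 and the interleukin receptor IL7R by 0.42, while GATA3 and CD300A rose by 1.13 and 1.32.

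T-lineage factors were evenly split, 7 rises and 7 falls among 27, with 3 rises without the keratin-high libraries. GATA3 read 1377, 1384 and 1364 against 2669, 3371 and 3006 (1.13 ± 0.09, limma adjusted p = 7e-10). TLX3, the oncogene of this line, read 9362, 8886 and 9315 against 4478, 5264 and 5614, a fall of 0.85 ± 0.12, and neither gene overlapped between the groups. ID3, an inhibitor of E proteins, fell by 1.90, IKZF2 by 1.00 and ETS1 by 0.86. BCL11B and TCF7, which hold the T-cell programme, differed by 0.00 and 0.03. In the wider list of thymocyte receptors and antigens 5 of 36 rose, or 3 without the keratin-high libraries, and 7 fell. The genes that rearrange antigen receptors were lower: RAG1 read 23680, 22520 and 21570 against 13130, 11740 and 10840 (-0.93 ± 0.10), RAG2 fell by 1.27 and DNTT, which adds bases at the joints, by 2.22. LAT, the adaptor of receptor signalling, rose by 1.22 and the thymus homing receptor CCR9 by 1.00, while CD3E differed by -0.14 and did not pass.

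Antigen presentation fell as a block, with 10 of 13 genes lower, none higher and a median of -0.74, and 9 of them without the keratin-high libraries. HLA-B (chr6:31353875-31357179) read 1415, 1495 and 1685 against 413, 575 and 479, without overlap (-1.66 ± 0.16, limma adjusted p = 1.8e-08). HLA-C, another classical class I gene, fell by 1.12, with reads between similar class I genes split by the authors' counting. TAP1, the peptide pump, fell by 0.81 and PSMB9, a subunit of the immunoproteasome, by 1.01. B2M, the common light chain of the class I molecules, read 9216, 9685 and 9406 against 6567, 8711 and 9595 and did not pass (-0.20 ± 0.18, adjusted p = 0.42). All 6 tested GIMAP genes, GTPases of lymphocyte survival that lie side by side, fell, at a median of -0.83. Among them GIMAP7 fell by 1.26 and GIMAP1 by 0.93.

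Signalling genes rose in part. NF-kB genes had 9 rises and 5 falls among 21 and immediate early genes 8 rises and 1 fall among 28. Without the keratin-high libraries the NF-kB falls numbered 2 and the immediate early rises 5, and the NF-kB falls numbered 3 without no-histidine replicate 1 or 3 or full-histidine replicate 3. Immediate early falls numbered 2 without the no-histidine replicate 1 and 3 with library weights or a pseudocount of 8. IER3, an early response gene of survival signals, read 222, 175 and 211 against 988, 1229 and 1117, a mean 5.48-fold higher (2.45 ± 0.20, limma adjusted p = 2.1e-09). LTB, lymphotoxin beta, rose by 1.36 and TNF by 0.92, while NFKB1, the p105 precursor, fell by 0.94. JUN read 436, 339 and 402 against 1021, 1101 and 979, a rise of 1.40 ± 0.15, and FOSL2 rose by 0.78. FOSB rose from 1.99, 3.13 and 2.21 to 23.7, 39.1 and 25.7. Of 30 FOXO and quiescence genes 10 rose and 4 fell, or 2 without the keratin-high libraries. The ubiquitin ligase subunit FBXO32 rose by 1.23, SLFN5 by 1.15 and the antiproliferative BTG1 by 0.93.

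Kinases and factors of splicing had 7 rises and 5 falls among 20, with 3 falls without the full-histidine replicate 1 and 1 without the keratin-high libraries. CLK1, a kinase of SR splicing factors, read 115, 191 and 89.8 against 570, 539 and 413, a mean 3.85-fold higher without overlap (2.00 ± 0.20, limma adjusted p = 6.6e-08). SRSF2, an SR factor, fell by 0.62.

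Replication-dependent histone genes, whose RNAs normally end in a stem-loop and not in a poly(A) tail, moved in opposite directions, 9 rises and 15 falls among 46. H2AC6 read 58.1, 81.5 and 179 against 1099, 1045 and 1439 (3.63 ± 0.26, limma adjusted p = 2.6e-10), and H2BC12 and H3C6 rose by 2.25 and 2.86. H4C3 read 734, 2087 and 7520 against 122, 134 and 222 (-3.87 ± 0.68, adjusted p = 0.0001). In the full-histidine group the order of the H4C3 values, lowest in replicate 1 and highest in replicate 3, is that of 5.8S rRNA at 153, 406 and 1181. Without histidine the order was not shared: H4C3 was highest in replicate 3, where 5.8S rRNA (242, 121 and 120) was lowest. With the log2 level of 5.8S rRNA as a covariate the list had 17 rises and 7 falls, and without the keratin-high libraries 5 rises and 17 falls, and the falls numbered 8 without the full-histidine replicate 3. SCARNA2, a small Cajal body RNA without a poly(A) tail, read 51.4, 69.8 and 131 and was at 0 in all 3 libraries without histidine, a call lost with the 5.8S covariate (adjusted p = 0.0571). Histone genes also have near-identical copies, which makes single members uncertain. Of 8 replication-independent histone genes 5 fell, or 3 without no-histidine replicate 2, full-histidine replicate 1 or 2, or the keratin-high libraries, or with upper-quartile or quantile scaling. A single one rose, or 2 in those scalings and with library weights. H2AZ1 was down by 0.80, H2AX by 0.76 and H3-3B up by 0.48.

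The largest rises with a mean of at least 50 included genes with little RNA in full histidine. SLC26A11, an anion transporter, read 2.64, 3.58 and 0.788 against 74.3, 65.9 and 51.4 (4.37 ± 0.66, limma adjusted p = 1.5e-05), and ADGRE2, an adhesion receptor of leukocytes, read 109, 138 and 129 against 1048, 1072 and 886 (2.99 ± 0.22). Others of the 12 were the adhesion molecule CNTN4 at 3.89, the sodium channel SCN2A at 3.31 and the long RNA LINC01176 at 2.97. TTC28-AS1 at 2.97 and GALT at 2.88 passed, but not without the full-histidine library of replicate 1 (adjusted p = 0.142 and 0.0754) or without the keratin-high libraries (adjusted p = 0.173 and 0.127). GALT also lost its call with only the groups compared (adjusted p = 0.0767), TTC28-AS1 without the no-histidine library of replicate 1 or 3 (adjusted p = 0.0649 and 0.0767), and LINC01176 without the keratin-high libraries (adjusted p = 0.0854).

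Among the 12 largest falls PACSIN3, a membrane-bending adaptor, read 257, 198 and 201 against 11.6, 10.1 and 23.2, a mean 14.6-fold lower (-3.86 ± 0.24, limma adjusted p = 2.7e-11). ADGRG1, an adhesion receptor, fell by 3.58, the heparan sulphate proteoglycan GPC3 by 4.58, ADAM11 by 4.26 and the receptor TNFRSF1B by 3.70. The call of TNFRSF1B was lost without the keratin-high libraries (adjusted p = 0.0577). KRT18 read 90.2, 365 and 2.74 against 1.06, 0 and 0, a fall (adjusted p = 0.04) that ended when any 1 of the 6 libraries other than the full-histidine replicate 3 was left out (adjusted p = 0.0608 to 0.194), without the keratin-high libraries (-1.56, adjusted p = 0.556), with a pseudocount of 8 (adjusted p = 0.0523) and without a mean trend (adjusted p = 0.0754). BLTP1 read 307, 422 and 252 against 191, 71.9 and 0, and its fall rests on the no-histidine library of replicate 3 (-3.73, adjusted p = 0.017, and -1.44, adjusted p = 0.17, without it) and was also lost without the full-histidine library of replicate 2 (adjusted p = 0.0531), the keratin-high libraries (adjusted p = 0.234), with the 5.8S covariate (adjusted p = 0.123) or with only the groups compared (adjusted p = 0.0756).

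Set against 12.5% histidine on the same day, 2869 of 18799 genes (15.3%) passed, 1316 rises (7.00%) and 1553 falls (8.26%). Leaving out 1 library moved the total over a range from 1758, without the no-histidine library of replicate 3, to 3310, without that of replicate 1. It was 1911 without the no-histidine library of replicate 2 and 1850 without the 12.5% library of replicate 2. Both comparisons use the libraries without histidine, so they are given side by side and not as separate support. G2/M genes fell again, 51 of 53 with none rising, as did 31 of 44 replication genes, 22 of 29 recombination genes and all 6 GIMAP genes. MKI67 read 29880, 32100 and 27390 at 12.5% histidine, above all 3 libraries without it (-1.73 ± 0.15, limma adjusted p = 1.1e-08). RAG1 at 25650, 24250 and 23160 fell by 1.04 and EZH2, the Polycomb methyltransferase, at 2432, 2765 and 2892, by 1.05.

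Some single genes were close to their level at 12.5% histidine. Medians of the cholesterol synthesis and antigen presentation lists were -0.08 and -0.13, against -0.93 and -0.74 in the comparison with full histidine. In cholesterol synthesis 4 of 23 genes rose (17.4%, against 7.00% of all genes). The rises numbered 1 to 8 over the alternatives, the fewest with only the groups compared, and 2 without the no-histidine replicate 3. Falls there numbered 0 to 1. In antigen presentation no gene rose and 0 to 2 of 13 fell over the alternatives. SCD, at 6561, 6289 and 6657 with 12.5% histidine, fell by 0.26 (limma adjusted p = 0.042), a call lost when any 1 library but the no-histidine replicate 2 was left out (adjusted p = 0.0733 to 0.158) and in 5 other settings (0.0611 to 0.0899). MCM2, at 2748, 3030 and 3132, differed by -0.19 (limma adjusted p = 0.21). It does not stand for the replication genes, of which 31 of 44 fell further, at a list median of -0.60. TXNIP, at 4787, 4785 and 5376, differed by 0.06 (adjusted p = 0.80). Against full histidine the same 3 genes had differed by -2.18, -1.85 and 1.25. ARRDC3, by contrast, read 1515, 1223 and 1300, and the step to no histidine was a further 1.51 ± 0.12 without overlap (adjusted p = 5e-09). FNIP1 rose by 0.54 but not without the no-histidine library of replicate 1 (0.42, adjusted p = 0.0547). DDIT3 rose by 0.82 from 405, 367 and 347, and TRIB3 by 0.55 from 3986, 4387 and 4745, so TRIB3 was higher without histidine than at 12.5% and lower than with full histidine. Ribosomal protein genes had 37 rises among 50 against 12.5% histidine. That count was 7 without the no-histidine replicate 3, 11 without its replicate 2, 8 and 11 without the 12.5% replicates 1 and 2, 9 with only the groups compared and 18 without a mean trend. It was 49 at most over the alternatives. HES1 rose by 0.47.

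The levels over all histidine amounts of day 6 fall into different shapes. Mean MCM2 values were 9385 ± 493 (SD, n = 3) at 100%, 9071 ± 1446 (n = 3) at 50%, 4449 ± 52.0 (n = 2) at 25%, 2970 ± 199 (n = 3) at 12.5% and 2611 ± 248 (n = 3) without histidine. MKI67 stayed between 22460 ± 2014 and 29790 ± 2354 down to 12.5% and was 9096 ± 1867 without histidine. ARRDC3 was 332 ± 33.6 at 100%, 316 ± 32.9 at 50%, 732 ± 79.8 at 25%, 1346 ± 151 at 12.5% and 3846 ± 424 without histidine. TXNIP was 2046 ± 129 at 50% and 4670 ± 208 at 25%, close to its level without histidine. Means of MCM2 and TXNIP were thus already shifted at 25%, the mean of MKI67 was lower than at 100% only without histidine, and the mean of ARRDC3 climbed at each step below 50%. These levels are a description, and steps between neighbouring amounts were tested only from 12.5% to none.

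**Figure D4:**
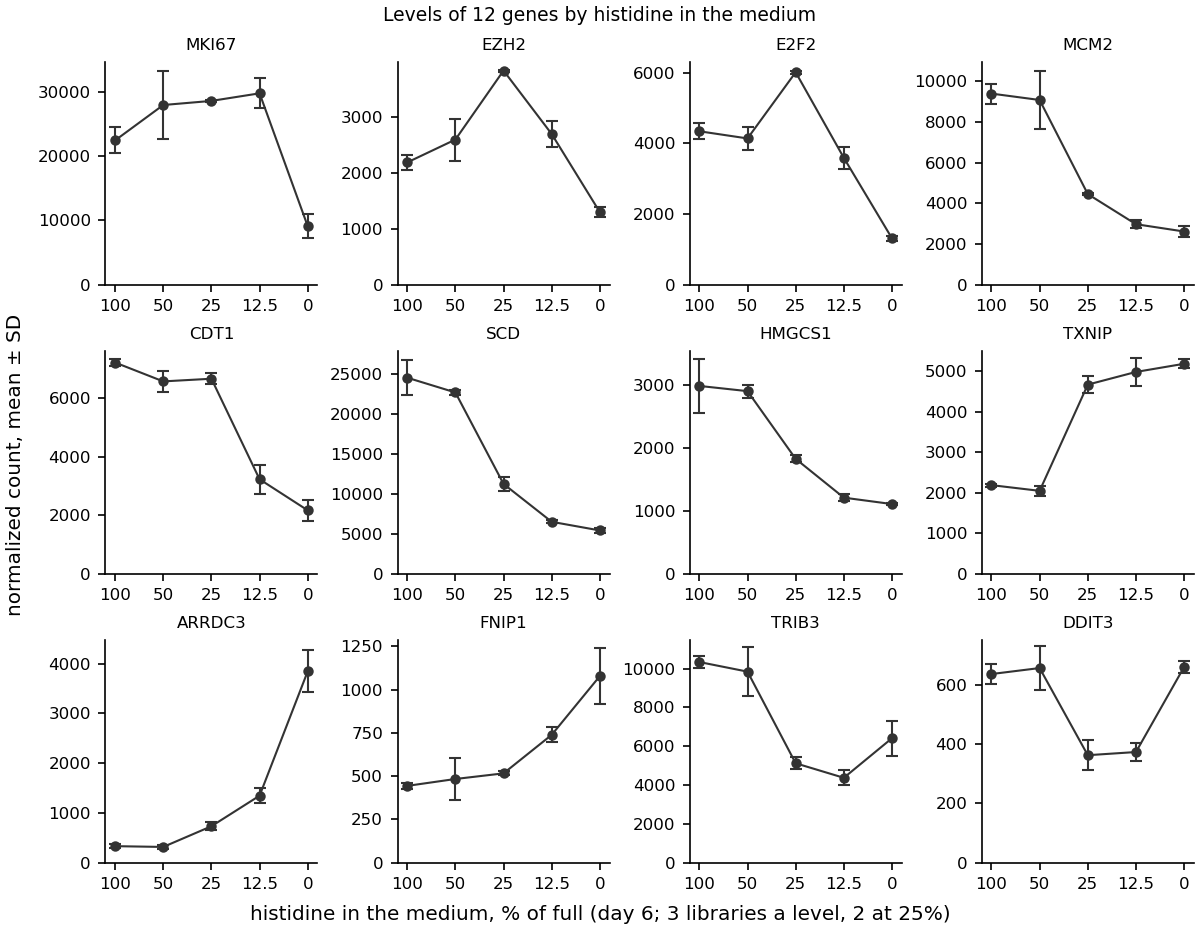
Mean normalized count ± SD (vertical axes, linear from 0) of 12 genes on day 6 at 100%, 50%, 25%, 12.5% and no histidine (horizontal axis), with 3 libraries a point except 2 at 25%. MKI67 drops at the last step to 9096, and ARRDC3 rises to 3846.

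Because histidine was the amino acid left out, the changes were laid out by the share of histidine codons (CAT and CAC) in each gene's longest coding sequence of at least 100 codons. For 12324 tested genes the median share was 2.46%. The genes that rose had a median of 2.43%, those that fell 2.47% and those that did not pass 2.47%. Across genes, which are not independent replicates, the share and the change correlated at r = 0.023 and rho = 0.005. Zinc finger genes, whose DNA-binding repeats hold paired histidines, made up 430 of the 1232 genes with the highest share, the top of 10 groups of about equal size. Of 499 tested genes with zinc finger names 22.0% rose and 10.4% fell, against 15.3% and 23.2% of the other 11825. In the top group without them, 118 of 802 genes rose and 182 fell.

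**Figure D5:**
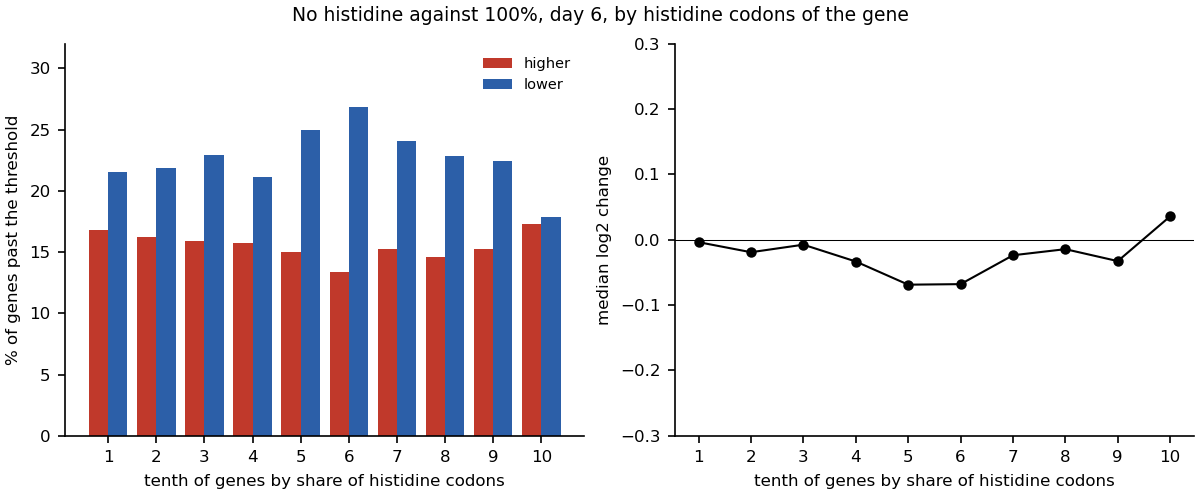
Genes tested in 10 groups by the share of histidine codons in their coding sequence (horizontal axis), with the percent of genes that rose and fell (bars) and the median log2 change (points). Median changes run from -0.069 to 0.036, and the top group holds 430 zinc finger genes among 1232.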

How the data were processed

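Strand-specific RNA-seq libraries of total RNA from DND-41 cells were analysed as deposited. The authors' values are normalized counts, a signal per gene made with kallisto 0.50.1 and DESeq2 1.44.0 on GRCh38 after FastQC 0.11.9, per the submitters' processing notes. Which annotation release and which strand setting they used is not given in the sources used here. Raw reads could not be recovered from the deposited values (of values under 20, between 37.82% and 76.14% per library came within 0.05 of whole multiples), so no count model was used and precision per value is not known.

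Genes with at least 10 in at least 2 of the 25 libraries were kept (18799 of 31919, 9278 of which in the table carry an Ensembl identifier in place of a symbol). limma 3.58.1 (R 4.3.3) was fitted to log2(value + 1) with a mean-variance trend, 1 mean for each of 9 groups and 16 residual degrees of freedom, two-sided, with Benjamini-Hochberg adjustment over all genes kept and a threshold of 0.05. On simulated data for this comparison (17997 genes), 67, 67 and 66 genes were changed by 0.5, 1 and 2 on the log2 scale. The fit recovered 35.8%, 65.7% and 95.5% of them, and 5.07% of its calls were false. A far larger share passed in the data (29.8%), where the adjusted threshold is less strict. The simulated shares therefore do not give the recovery there.

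The comparison, the 50 gene lists and the 8 marker lists were chosen with earlier results of these data known. Named genes are the 12 largest rises and falls (6 each way against 12.5%) with a symbol, a higher-group mean of 50 or more and no overlap between libraries, up to 6 members of each list with the largest change past the threshold, and a list named whatever its values. CDK4, CDK6, B2M, ARRDC4, MAP1LC3B, BCL11B, TCF7, CD3E, BCL2L1, LCK, CD79A, FGF21, FOSB, AMDHD1, TIPIN, RPA1, MCM6, PCNA, PLK1 and RRM2 were chosen after their values were seen, as were the promoters shown and the TXNIP motif. Some members of the lists are not reported here. Gene coordinates and promoter letters are from RefSeq (GRCh38.p14). The planned share of histidine in proteins was replaced by histidine codons of GENCODE coding sequences, since no protein table was used here. Alternatives varied the pseudocount (0.5, 8), filter, scaling, mean trend, library weights, replicate block, groups fitted, 5.8S rRNA level and libraries left out. Replicate numbers served only as names in the main fit and were not used to pair the libraries. Figures were drawn with matplotlib 3.10.9 (Python 3.11.15).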

Additional observations from a re-analysis of the deposited data

How the results depend on the processing

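Among the named genes, no called change turned its direction under an alternative. The balance of rises and falls in gene counts did turn in some settings. Over all genes, upper-quartile rescaling gave 3157 rises and 2786 falls. The ATF4 list went from 7 rises and 9 falls to 12 and 6 with quantile normalization. Replication-dependent histones went from 9 rises and 15 falls to 17 and 7 with the rRNA covariate. For no histidine against 100%, 5611 genes passed (2503 rises, 3108 falls), and the counts moved by over 1.5 times only without the keratin-high libraries, which leaves 1 library with full histidine: 3243 genes, 1483 rises and 1760 falls. Leaving out 1 library gave 4682 to 4913 genes, 2012 to 2167 rises and 2603 to 2861 falls. For no histidine against 12.5%, 2869 genes passed (1316 rises, 1553 falls). Library weights gave 4967 genes, 2509 rises and 2458 falls, a fit to only the groups compared gave 1612 genes, 660 rises and 952 falls, and leaving out 1 library gave 1758 to 3310 genes, 647 to 1678 rises and 1093 to 1632 falls. The cause of the change with library weights was not tested; the other settings hold fewer libraries.

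Same-numbered libraries did not deviate together (correlations of -0.0768 to 0.0626 over the 100%, 12.5% and no-histidine groups of day 6). With the replicate block 5534 genes passed against 100%, with 2459 rises and 3075 falls, and 2777 against 12.5%, with 1267 rises and 1510 falls. Of 304 named genes called against 100%, 3 lost the call with the block, 61 without the keratin-high libraries, 20 with the 5.8S rRNA covariate, 14 to 17 when 1 library was left out, 6 with quantile normalization and 5 with upper-quartile rescaling. Of 149 called against 12.5%, 40 lost it when only the groups compared were fitted, 17 to 40 when 1 library was left out and 4 with the block. With 3 libraries a group the median standard error was 0.22. Changes of 0.5 on the log2 scale were often missed on simulated data. Far fewer genes changed there, so the share missed in the real comparison is not known.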

Other observations

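Several further groups are listed here beside the 13.3% of all genes that rose and the 16.5% that fell. The zinc list was at 21.1% for rises and for falls, and the interferon list at 15.2% and 21.2%. The NRF2 list stood at 26.1% and 13.0%, the chromatin writers at 9.1% and 40.9%, and the proteasome at 0.0% and 25.0%. In the NRF2 and glutathione list 6 of 23 tested genes rose and 3 fell. GPX1, glutathione peroxidase, read 766, 712 and 867 with full histidine and 1116, 1790 and 2044 without it, a rise of 1.04 ± 0.21 on the log2 scale (limma adjusted p = 0.00045). FTL, the ferritin light chain, rose by 0.94 and TXNRD1, thioredoxin reductase, by 0.62, while CHAC2, which degrades glutathione, fell by 1.27. Zinc genes had 4 rises and 4 falls among 19, or 2 falls without the keratin-high libraries. The metallothionein MT2A, which binds zinc, read 248, 199 and 260 against 83.2, 94.7 and 93.4, a fall of 1.37 ± 0.19 without overlap. MTF1, the zinc-sensing factor that drives metallothioneins, rose by 0.92, the zinc importer SLC39A8 by 1.06, and SLC39A14, a related importer, fell by 0.74.

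Chromatin writers of this leukaemia had 9 falls and 2 rises among 22, or 6 falls and no rise without the keratin-high libraries, and 1 rise without the no-histidine replicate 1 or the full-histidine replicate 3. DNMT1, the maintenance DNA methyltransferase, read 6882, 7191 and 6004 against 2272, 1752 and 2205 (-1.69 ± 0.11, limma adjusted p = 7.7e-11). DNMT3B fell by 1.38, and SUZ12 and EZH2, partners in the Polycomb complex PRC2, fell by 1.17 and 0.75. Interferon genes were divided, with 5 rises and 7 falls among 33, or 3 of each without the keratin-high libraries and 8 rises and 5 falls with upper-quartile or quantile scaling. BST2, a surface protein that tethers viruses, rose from 593, 538 and 455 to 1215, 1641 and 1815 (1.54 ± 0.15) and TRIM22 by 0.79, whereas MX1, an antiviral GTPase, fell by 1.12. Of 36 proteasome genes 9 fell and none rose, with 4 falls without the keratin-high libraries and 5 without replicate 1 of either group. Without the no-histidine replicate 1 there were 2 rises, as with quantile normalization, and there were 4 with upper-quartile rescaling or library weights and 1 without the full-histidine replicate 3 or with only the groups compared.

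Against 12.5% histidine the named falls of largest size included PHLDB2, which read 173, 178 and 122 at 12.5% and 44, 34.3 and 11.7 without histidine (-2.52 ± 0.29, limma adjusted p = 1.2e-06). CASP8AP2 read 746, 798 and 746 against 1.05, 239 and 126, with replicate 1 far below the other libraries of its group, and its fall of 4.27 ± 1.01 (limma adjusted p = 0.0053) was lost when only the groups compared were fitted (adjusted p = 0.0814). The named rises included ACY1, an aminoacylase, at 5.02, 12.8 and 25.6 against 78.8, 80.7 and 59.8 (2.49 ± 0.37, adjusted p = 5.3e-05).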
